A study of Homo sapiens with 2 samples.

Results

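A-kinase anchoring proteins (AKAPs) bind the regulatory subunits of protein kinase A (PKA), the kinase that cyclic AMP activates, and hold it at fixed places in the cell together with phosphatases, phosphodiesterases and other kinases. Each AKAP has its own address, such as the plasma membrane, the actin cytoskeleton, the centrosome, the outer mitochondrial membrane or the nucleus. They share the PKA-binding function rather than a common sequence. The values described here are those of their mRNAs and not of the proteins.

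The cells were MDA-MB-231, a triple-negative human breast cancer line with mesenchymal features. The 2 samples are RNA recovered with an immunoprecipitation (IP) of catenin, which the title writes as B-catenin, and an input. Per the labels, RNA was taken up with phenol-alcohol and sheared to about 300 to 500 bp, and no treatment or genotype is named for either sample. The stated purpose was to find long noncoding RNAs bound by catenin. Each sample is 1 library, so the values below have no replicate error and no test between samples was possible. The file analysed belongs to the IP and lists peaks, which are stretches of a transcript with more sequenced tags than the authors' background.

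All symbols that contain AKAP were taken, which gave 9 of the 1658 symbols in the list. The family was picked out by name with its values known, and for each symbol the transcript was selected on the highest sum of tags (the lowest identifier where sums tied), so the levels below are a description. The 9 symbols were AKAP1, AKAP2, PALM2-AKAP2, AKAP8, AKAP9, AKAP11, AKAP12, AKAP13 and AKAP17A, with 17 peaks. The RefSeq table for GRCh38.p14 has a single gene, PALM2AKAP2, for both AKAP2 and PALM2-AKAP2. In its terms 8 of 17 protein-coding AKAP genes had a peak, against 8.11% of all 20056 protein-coding genes of the table (1627). Long or abundant mRNAs were not matched for, and the family was chosen with its peaks known, so nothing is read from that difference. The other 9 were AKAP3, AKAP4, AKAP5, AKAP6, AKAP7, AKAP8L, AKAP10, AKAP14 and AKAP19, for which absence means only that no peak was listed. Because tags of PALM2-AKAP2 may be those of AKAP2 counted again, sums over the family leave PALM2-AKAP2 out. The members then held 1790 of 133280 tags, or 1.34% (exact Clopper-Pearson interval 1.28 to 1.41%). That interval, too, covers counting error only. Peaks that other symbols share, such as those of ZBED6 and ZC3H11A, stayed in the total under each symbol.

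Tags are whole counts in a peak, their density is given per kb of peak length, and the fold is the enrichment the authors deposited for the peak. Intervals are exact Poisson intervals at 95% for tags and cover counting error only. Where intervals overlap, this does not show that the values are equal. Over all 1658 symbols the medians were 41 tags, 29.8 tags per kb and a fold of 7.56. Of the 9 AKAP symbols, 6 lay above the median in tags, 5 in tags per kb and 7 in fold. With PALM2-AKAP2 left out the counts were 5, 4 and 6 of 8.

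Tags differed widely within the family. They are counts of the IP alone, since no values of the input were available. The order by tags or tags per kb is therefore not corrected for the abundance of each mRNA. AKAP12 and AKAP2 together held 70.1% of the AKAP tags (67.9 to 72.2%, PALM2-AKAP2 left out), and AKAP12 alone 44.0%. At the other end, AKAP8 and AKAP11 rested on 13 and 14 tags, close to the 11 tags of the weakest peak in the whole list. In tags per kb the order was AKAP12, then AKAP2, PALM2-AKAP2 and AKAP17A at nearly the same level, then AKAP1, and last AKAP9, AKAP13, AKAP8 and AKAP11. The intervals of AKAP2, PALM2-AKAP2 and AKAP17A overlapped, and so did those of the last 4. The interval of AKAP1 overlapped those of AKAP17A and PALM2-AKAP2 but not that of AKAP2. AKAP12 lay above all others with no overlap.

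**Figure D1:**
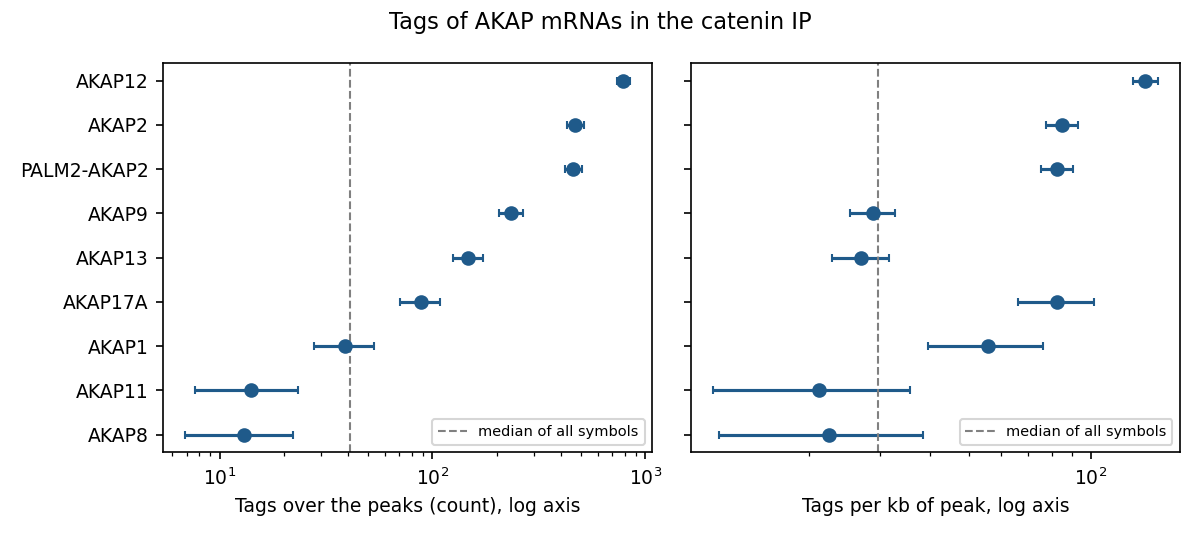
Tags over the peaks (left) and tags per kb of peak (right), both on log axes, for the 9 AKAP symbols in the 1 IP library. Points are values, bars are exact Poisson intervals at 95%, and the dashed line is the median of all 1658 symbols; AKAP9 and AKAP13 lie above that median in tags and close to it in tags per kb.

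AKAP12, also called gravin or SSeCKS, is a large scaffold at the plasma membrane and cortical cytoskeleton that binds PKA and protein kinase C. Its mRNA carried 787 tags (interval 733 to 844) in 1 unbroken peak from nt 81 to 5848 of ENST00000354675, and its summit lay at nt 1880. Per length this came to 136 tags per kb (127 to 146). Among all symbols it ranked 13 by tags, 17 by tags per kb and 17 by fold, at 43.02. It held 1.68 times the tags of AKAP2 and 3.36 times those of AKAP9. The other 3 listed transcripts carried the peak with 784 tags over 5719 nt at a fold of 43.31, so AKAP12 values hardly depend on the transcript. Its score, a column of the authors' that has lost its name, stood at 3100, a value that 24 of the 6195 listed peaks share, so it gives no order among them.

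AKAP2, also called AKAP-KL, is associated with the actin cytoskeleton, and PALM2-AKAP2 is a read-through that joins it to the exons of PALM2, a paralemmin. Both symbols had a pair of adjoining peaks. On the AKAP2 transcript ENST00000374525 the upstream peak covered nt 102 to 3228 with 239 tags (210 to 271), and the downstream peak covered nt 3306 to 5692 with 229 tags (200 to 261). On the PALM2-AKAP2 transcript ENST00000374530 they covered nt 704 to 3869 with 230 tags (201 to 262) and nt 3947 to 6333 with 229 tags. The gap between the peaks was 77 nt on both transcripts. The sums were 468 tags (427 to 512) for AKAP2 and 459 (418 to 503) for PALM2-AKAP2, which rank 25 and 31. On the other transcript of each symbol only the upstream peak was listed, and the sums were 230 for AKAP2 (ENST00000434623) and 239 for PALM2-AKAP2 (ENST00000302798).

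No listed peak told the symbols apart. The table has 3 distinct peaks under these names, and all 3 appear under both symbols with the same length, summit offset, tags, score and fold. The upstream peak came in a form of 3127 nt with 239 tags (ENST00000374525 of AKAP2 and ENST00000302798 of PALM2-AKAP2) and a form of 3166 nt with 230 tags (ENST00000434623 of AKAP2 and ENST00000374530 of PALM2-AKAP2). These forms differ by 39 nt and 9 tags but have their summit 919 nt into the peak and a fold of 45.73 alike. The downstream peak had the same 229 tags on both transcripts that list it. Over all symbols, 24 peaks were identical in these values on several symbols, 13 of them with at least 20 tags. The 3 of AKAP2 and PALM2-AKAP2 held the most tags of the 24, ahead of a peak of ZBED6 and ZC3H11A with 205 tags. No row carried PALM, PALM2, PALM3 or PALMD alone as its symbol (0 of 4), although RefSeq now counts PALM2 as part of PALM2AKAP2. Whether any tag came from the read-through RNA was not tested.

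The upstream peak had somewhat more tags but, being longer, the lower density, 76.4 tags per kb (67.0 to 86.8), and a fold of 45.73. The downstream peak had a density of 95.9 (83.9 to 109) and a fold of 21.53. The intervals of the densities overlap, which does not show that the densities are equal. The density upstream was 0.797 times that downstream, while the fold upstream was 2.12 times that downstream. The upstream fold is one of the stepwise values described below and the downstream fold is not. The ratio of folds thus sets values of 2 kinds side by side, and no stronger enrichment upstream is read from it. By its highest fold AKAP2 ranked 11 of 1658, level with PALM2-AKAP2.

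**Figure D2:**
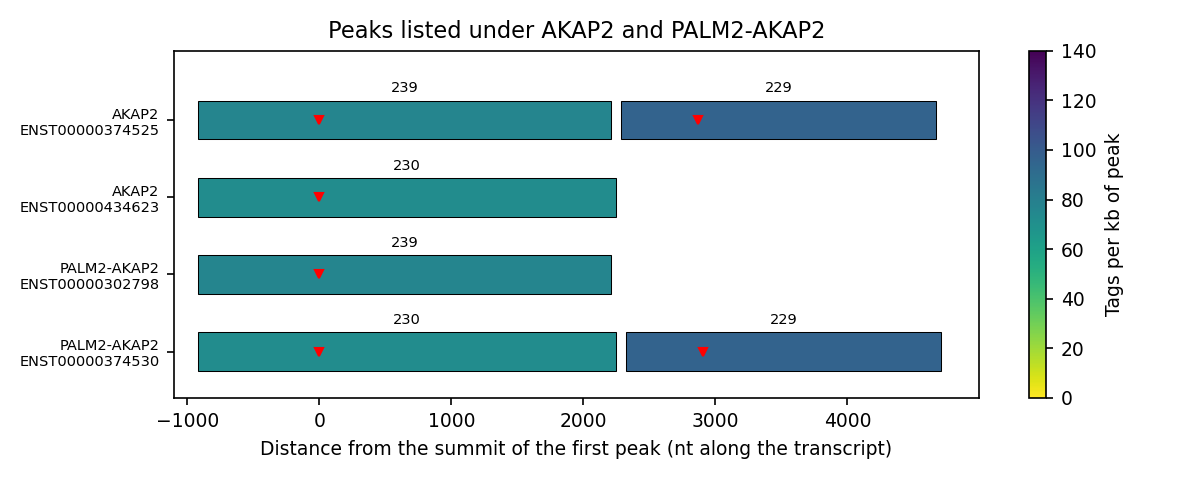
Peaks on the 4 transcripts listed under AKAP2 and PALM2-AKAP2, drawn by distance in nt from the summit of the upstream peak. Bars are peaks with their tags printed above, colour is tags per kb, and red triangles are summits; each symbol has 1 transcript with the 239-tag form and 1 with the 230-tag form.

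AKAP17A, also called XE7, is a nuclear protein linked to splicing factors, and its gene lies in the pseudoautosomal region shared by the X and Y chromosomes. It had 1 peak at nt 414 to 1480 of ENST00000313871 with 88 tags (70.6 to 108) and a summit at nt 1075. That gave 82.5 tags per kb (66.1 to 102), the level of AKAP2, from a peak of 1067 nt. It ranked 406 by tags but 70 by tags per kb and 39 by fold, at 28.94. No source used here says how reads from the X and Y copies were placed.

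AKAP1 anchors PKA at the outer mitochondrial membrane and also has RNA-binding domains. It had 1 peak of 700 nt with 39 tags (27.7 to 53.3), or 55.7 tags per kb (39.6 to 76.2). On ENST00000314126 the peak covered nt 597 to 1296. All 6 listed transcripts carried the peak with 39 tags, starting between nt 597 and nt 1090, with a fold of 13.95 on 5 of them and 14.1 on ENST00000539273. The start moved while tags and length stayed fixed, so the 6 entries give 1 measurement.

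AKAP9, also called AKAP450 or yotiao, is a scaffold of the centrosome and the Golgi apparatus, and AKAP13, also called AKAP-Lbc, is a cytoplasmic scaffold. Both are very large proteins, and both mRNAs had 4 peaks. Of all 1658 symbols, 59 (3.56%) had 4 or more. AKAP9 held 234 tags (205 to 266) over 8115 nt of peak, and AKAP13 147 (124 to 173) over 5446 nt. The densities were 28.8 (25.3 to 32.8) and 27.0 tags per kb (22.8 to 31.7), ranks 884 and 994. AKAP9 ranked 101 by tags and 19 by length of peak, while its density was below the median of all symbols.

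Along AKAP9 (ENST00000356239) the peak at nt 39 to 3486 held 98 tags and the peak at nt 5339 to 8470 also 98. A smaller peak at nt 4239 to 5192 held 25 and one at nt 8647 to 9227 held 13. The densities of the 4 peaks were 28.4 (23.1 to 34.6), 26.2 (17.0 to 38.7), 31.3 (25.4 to 38.1) and 22.4 tags per kb (11.9 to 38.3) in the order of position. All 4 intervals overlap. Both 98-tag peaks had a fold of 10.42. On ENST00000358100 the middle peaks were given as 1 peak of 4091 nt with 124 tags, against 25 and 98 on ENST00000356239. The count of AKAP9 peaks therefore depends on the transcript, at 4, 3, 3, 2 or 1. The tags of these transcripts, in the same order, were 234, 232, 215, 61 and 94.

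Along AKAP13 (ENST00000361243) the peaks covered nt 547 to 1386 (16 tags), nt 1969 to 3780 (46), nt 4884 to 5907 (30) and nt 5937 to 7706 (55). Their folds were 4.63, 6.37, 10.42 and 11, which rose in the order of position on this transcript. The densities were 19.0 (10.9 to 30.9), 25.4 (18.6 to 33.9), 29.3 (19.8 to 41.8) and 31.1 tags per kb (23.4 to 40.4), and all 4 intervals overlap. ENST00000394518 gave the same 4 peaks and the same 147 tags, shifted by 14 nt for the upstream pair and by 2 nt for the downstream pair. ENST00000394510 and ENST00000560579 carried only the downstream region, each with the 55-tag peak, and ENST00000559362 only the upstream pair. On ENST00000560676 the folds were 10.42 and then 5.79 for a last peak with 19 tags, so they fell in the order of position there. In ENST00000394510 and ENST00000560676 the peak before the last had 24 tags and 900 nt, against 30 tags and 1024 nt elsewhere. The distance from its start to the start of the next peak was 1050 nt there and 1053 nt in the other transcripts with both peaks.

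**Figure D3:**
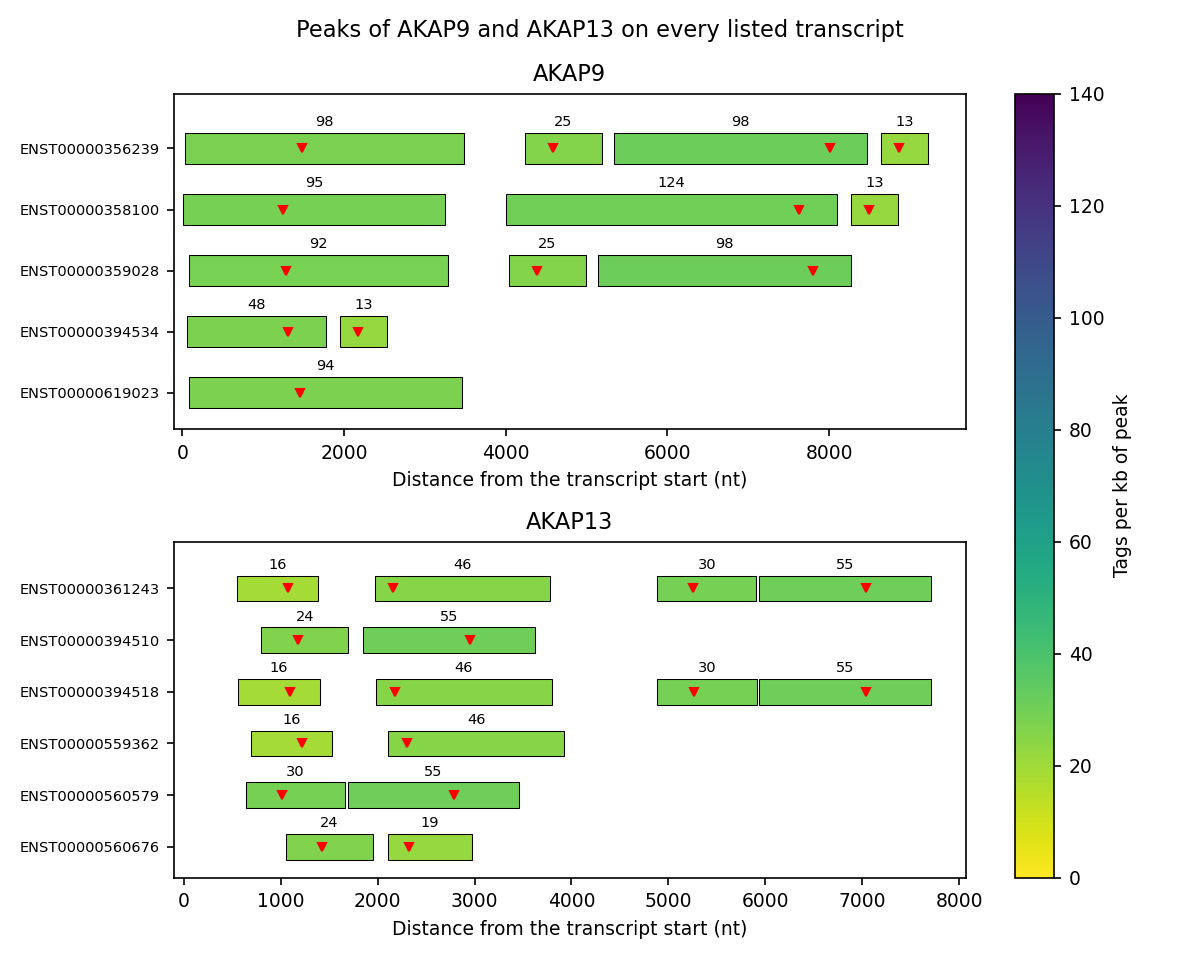
Peaks of AKAP9 (top, 5 transcripts) and AKAP13 (bottom, 6 transcripts) by distance in nt from the start of each transcript. Bars are peaks with their tags printed above, colour is tags per kb, and red triangles are summits; the same tags, such as the 55-tag peak of AKAP13, recur at other distances on other transcripts.

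AKAP8, also called AKAP95, is a nuclear protein that also acts on chromosomes in mitosis. It had 1 peak at nt 913 to 1490 of ENST00000269701 with 13 tags (6.92 to 22.2). AKAP11, also called AKAP220, binds protein phosphatase 1 and GSK3B. It had 1 peak at nt 3313 to 3971 of ENST00000025301 with 14 tags (7.65 to 23.5). Both stood at a fold of 6.37 and at scores of 36.59 and 35.91, against the minimum of 30 in the list, and ranked 1536 and 1487 by tags.

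**Figure D4:**
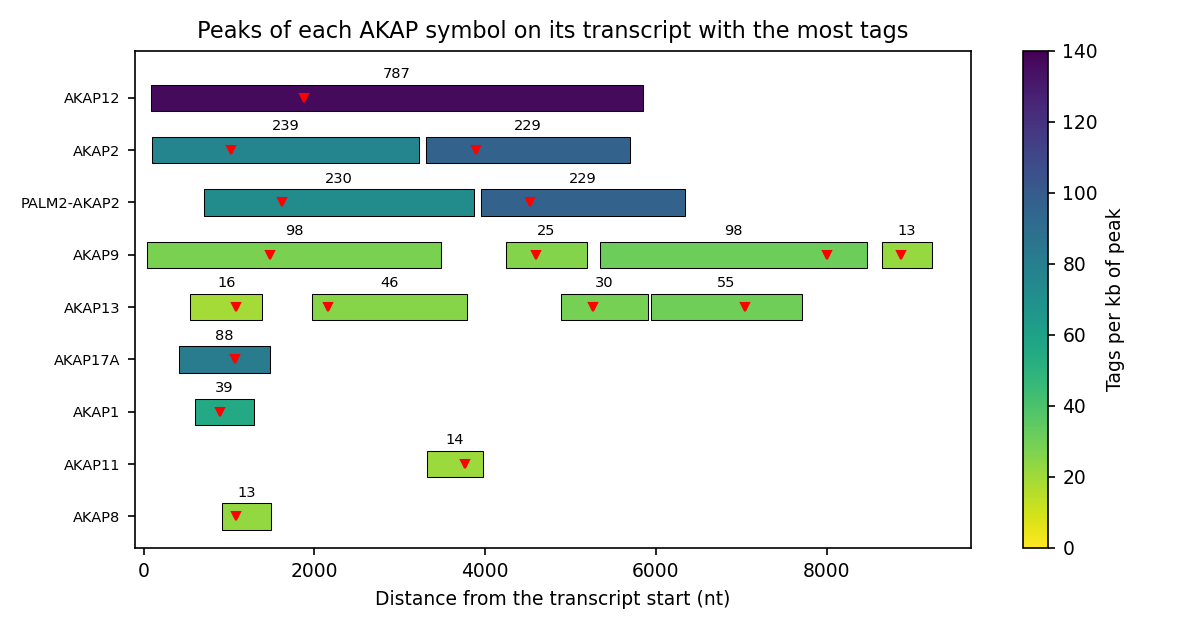
Peaks of each AKAP symbol on its transcript with the most tags, by distance in nt from the transcript start. Bars are peaks with their tags printed above, colour is tags per kb, and red triangles are summits; AKAP12 has 1 long peak, AKAP9 and AKAP13 have 4 peaks of low density, and AKAP8 and AKAP11 have 1 short peak each.

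A fold of at least 10 was reached by 7 of the 9 AKAP symbols, or 6 of 8 without PALM2-AKAP2, against 30.3% of all symbols. A score of at least 100 was likewise reached by 7 of 9, against 39.4%. The family was chosen with these values known, so nothing further is read from either share. Most folds in the list take stepwise values: 70.1% of the 2440 peaks (1 transcript a symbol) were whole multiples of 0.5788 to within 0.0051, and of the 17 AKAP peaks 13 were. The upstream AKAP2 peak stood at 79 steps, AKAP17A at 50, both 98-tag peaks of AKAP9 at 18 and AKAP8 and AKAP11 at 11. AKAP12, AKAP1 and the downstream peak of AKAP2 and PALM2-AKAP2 were off the steps. Ranks by fold thus set values of both kinds side by side.

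**Figure D5:**
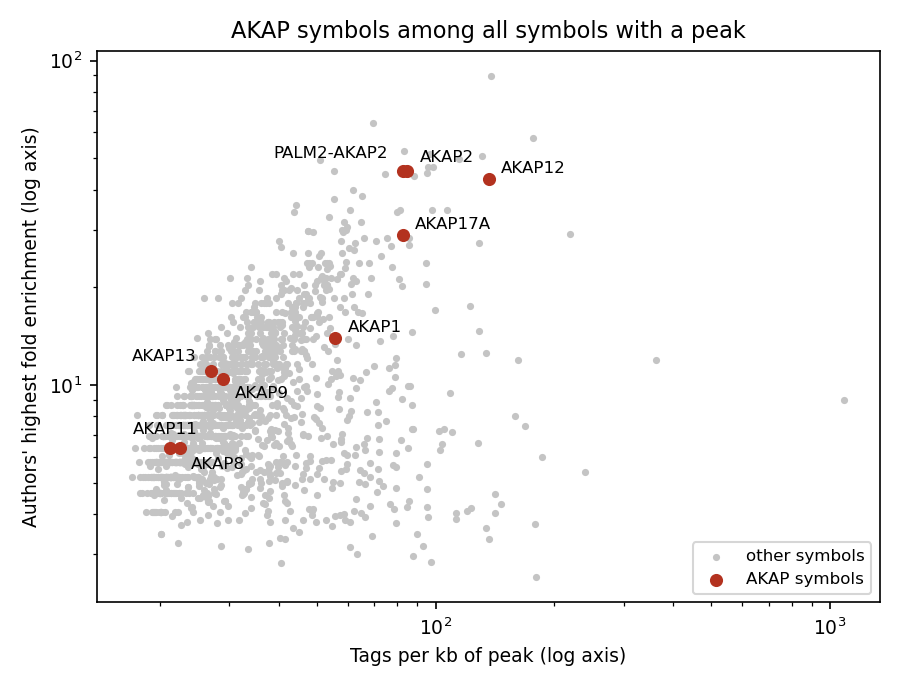
Tags per kb of peak against the authors' highest fold, both on log axes, for the 9 AKAP symbols (red) and the other symbols of the list (grey). AKAP12, AKAP2, PALM2-AKAP2 and AKAP17A have the highest folds of the family, from 28.94 to 45.73, and AKAP9 and AKAP13 lie near the median density.

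The authors' region labels divided the AKAP peaks into coding sequence alone for AKAP1, AKAP11, AKAP13, AKAP17A and 3 of the 4 AKAP9 peaks, and classes with an untranslated region for the rest. Of 10 AKAP peaks that recurred with the same values on several transcripts of a symbol, 9 kept 1 label and 1 did not. The exception, the 784-tag peak of AKAP12, was labelled 3' untranslated and coding on ENST00000253332 and ENST00000402676, and 3' and 5' untranslated on ENST00000359755. Of 1236 such recurring peaks in the whole list, 298 (24.1%) had more than 1 label. No result here rests on the labels.

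Genes of AKAP partners were taken from lists. These are selections and not complete pathways, and their shares stand beside the 8.11% of all protein-coding genes with a peak. Of 11 genes of PKA subunits and PKA inhibitors, 2 had a peak. Both encode regulatory subunits. PRKAR1A, the type I alpha subunit, had 79 tags (62.5 to 98.5), 64.3 tags per kb and a fold of 5.45. PRKAR2A, the type II alpha subunit, had 39 tags (27.7 to 53.3), 36.7 tags per kb and a fold of 9.50. No catalytic subunit gene had a listed peak, and neither did the other regulatory subunit genes PRKAR1B and PRKAR2B. In a list this short absence says little, so no contrast of regulatory with catalytic genes is read.

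Of 49 other genes of cyclic AMP signalling and AKAP complexes, 7 had a peak, against 8.11% of all protein-coding genes. Nothing is read from that difference. The median fold of the 7 was 8.10 against 7.56 over all symbols. PRKCA, protein kinase C alpha, had the most, 190 tags (164 to 219) in 4 peaks at 31.9 tags per kb. PCNT, the centrosomal scaffold pericentrin, had 83 tags in 5 peaks at 23.9 tags per kb, against 28.8 for AKAP9. PDE8A, a cyclic AMP phosphodiesterase, had 50 tags (PDE10A, another such enzyme outside the list, was noticed after its values were seen, with 13 tags and a fold of 5.79), and CREBBP, a coactivator of the cyclic AMP response factor CREB, had 44. DLG1, a membrane scaffold, had 34, PPP3CA, a calcineurin catalytic subunit, had 30 and GSK3B, a kinase of the beta-catenin destruction complex, had 12. Their folds ran from 5.79 for DLG1 to 11.58 for CREBBP. No adenylyl cyclase gene had a listed peak, which says little for so few genes.

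Proteins with PKA-anchoring activity but other names form another list, in which 7 of 23 genes had a peak, against 8.11% of all protein-coding genes. The list was not matched for length or abundance, so nothing is read from that difference. The 23 include C2orf88, another name of AKAP19, which was also counted above as an AKAP gene without a peak. EZR, which encodes the membrane to actin linker ezrin, had 300 tags (267 to 336) at 134 tags per kb, the density of AKAP12, with a fold of 12.55 against 43.02. MSN, the related moesin, had 265 tags (234 to 299) at 103 tags per kb and a fold of 6.28. ACBD3, a Golgi protein, had 93 tags and a fold of 22.81. ARFGEF2 had 82 tags at 12.16, NF2 (merlin) 41 at 11, RDX (radixin) 41 at 9.26 and OPA1, a mitochondrial fusion GTPase, 21 at 4.95. The folds of EZR, MSN, ACBD3 and OPA1 were off the steps.

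The labelled cell line could be checked only in part from this list. Of mesenchymal genes 2 of 6 had a peak (FN1 with 413 tags and ZEB1 with 17). Of 2 genes listed for the identity of the line, EGFR had 318 tags and MYC had no listed peak. A peak was listed for 0 of 6 luminal epithelial and 0 of 4 immune genes. Over all protein-coding genes the share with a peak was 8.11%, so 0 in lists this short says little. VIM and CD44 also had no listed peak, so an absent marker does not tell cell types apart.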

How the data were processed

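RNA of a catenin IP from MDA-MB-231 cells and an input are the 2 samples, and the peak file of the IP was used. The submitters' processing notes name hg18, but some Ensembl identifiers seem to be newer than that build. For the peak caller, its background and the use of strand: not given in the sources used here. Positions are therefore nt along Ensembl transcripts, counted from 1. The authors deposited a tag count, a whole number, for each peak. The fold is the deposited column headed fold_enrichment, and the header does not say what the enrichment is measured against. The score is a deposited column whose header was lost.

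The depth of the library is unknown, and PCR reads are not independent molecules. Tags were summed over the peaks of 1 transcript per symbol. All genes with a peak in the lists are named, with the 3 symbols nearest AKAP12 and AKAP2. Members and lists were chosen with earlier results of these data known. The fold step was found by a grid search over all 6195 peaks, and the procedures were tested on simulated data. Python 3.11.15, pandas 2.3.3 and SciPy 1.17.1 were used. Alternatives were other transcripts, score minimums of 50 and 100, a 4-fold minimum, merged symbols and the highest peak alone.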

Additional observations from a re-analysis of the deposited data

How the results depend on the processing

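No paired analysis was possible because there is only 1 library of each kind. The 9 AKAP symbols became 7 with a score of at least 50 or 100 (AKAP8 and AKAP11 dropped out), 8 with symbols of identical peaks merged and 9 with a 4-fold minimum. The 17 peaks became 48 with every transcript on its own, which counts more units by construction, and 11 with a score of at least 100. The PKA subunit and partner genes with a peak, 9 in the main count, were 3 with a score of at least 100. AKAP8, AKAP11 and AKAP17A have 1 transcript and 1 peak, so that other transcripts or the highest peak alone could not move them. AKAP13 fell to 101 tags with a score of at least 100, and its highest fold was 6.37 on the transcript that lists only the upstream pair. PALM2-AKAP2 had 239 tags on ENST00000302798, which lists 1 peak and ties for the highest fold. With the highest peak alone, here the upstream one, the densities were 76.4 tags per kb for AKAP2 and 72.6 for PALM2-AKAP2. Both moved below the intervals of the main values, 84.9 (77.4 to 92.9) and 82.7 (75.3 to 90.6). The downstream peak of both symbols, at 95.9 tags per kb, lies above these intervals. AKAP8 and AKAP11 rest on the fewest tags.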

Other observations

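By tags, tags per kb and fold together, measured as the sum of absolute log2 differences in the 1 library, the symbols nearest AKAP12 outside the family were NBPF10, NBPF14 and NBPF19, at distances from 0.88 to 0.97. NBPF symbols belong to a family of highly similar copies, and how shared reads were assigned is unknown. Nearest AKAP2 was BAZ1B, a chromatin remodeller subunit, at a distance of 0.21, with 461 tags, 95.2 tags per kb and a fold of 45.15. ABL2, a tyrosine kinase, and PRRC2C followed at 0.77 and 0.79.

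Among the 7 AKAP symbols with a cellular component in the annotation the authors joined, 4 (AKAP9, AKAP11, AKAP12 and AKAP13) were placed in the cytoskeleton, a term held by 20.8% of the 1569 annotated symbols. The nucleus was given for 4 of 7 (AKAP8, AKAP11, AKAP13 and AKAP17A), against 63.4% of annotated symbols, and the mitochondrion for AKAP1 and AKAP8, against 7.27%. The plasma membrane was given for 3 of 7, against 23.4%, and the microtubule cytoskeleton for 2 of 7, against 7.65%. The family was picked by name, so nothing is read from these shares. AKAP2 and PALM2-AKAP2 carried no component term, so the members with the highest fold are not in these counts.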
